A study of Anopheles gambiae with 36 samples.

Results

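Leucine-rich repeat immune genes were followed in the ears of female and male *Anopheles gambiae* mosquitoes. The set holds 9 genes, taken by identifier: the LRIM cluster with the consecutive identifiers AGAP007453 to AGAP007457 (5 genes), LRIM1 (AGAP006348) and the APL1 genes AGAP007033, AGAP007035 and AGAP007036. Each gene has 1 transcript, with the suffix RA, so the set makes up 9 of the 15863 transcripts and 9 of the 13832 genes in the deposited table. The genes were chosen by their difference between the sexes, that is, on the female and male counts in these same libraries. Their female and male levels are therefore given as a description, without a test. The time of day, the replicate numbers and the relations between libraries of 1 sex did not enter the choice and were tested.

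RNA was sequenced from the second antennal segment, which houses the Johnston's organ (JO), the mosquito's auditory sense organ, with the flagella removed. All mosquitoes were untreated animals of the Kisumu strain, 3 to 7 days old, and females and males emerged in separate cages. They were kept in 12 h of light and 12 h of darkness with ramps of 1 h, where zeitgeber time (ZT) gives the hours since the light came on. Each library came from the segments of 35 animals, with 3 libraries per sex at ZT0, ZT4, ZT8, ZT12 (laboratory swarm time), ZT16 and ZT20. After the authors had discarded a male ZT12 library, 18 female and 17 male libraries of the 36 were compared.

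LRIM1 and APL1 are secreted proteins of the mosquito haemolymph, the fluid that fills the body cavity. They bind each other through disulphide bonds, and their complex holds the processed form of TEP1, a complement-like protein that marks bacteria and malaria parasites for destruction. Haemocytes, the circulating blood cells, and the fat body are known sources of these proteins. The genes AGAP007453 to AGAP007457 are described here only as the LRIM cluster, since the sources used here name no role for the single genes.

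The deposited values are estimated counts from Kallisto, a program that assigns reads to transcripts. Total estimated counts ran from 9341559 to 17815875 per female library and from 11074632 to 18255021 per male library. Levels below are normalised counts, that is, counts divided by a factor that puts the 35 libraries on a common depth. They depend on transcript length and are compared between groups of libraries, not between genes. The read fraction of the opsins, the visual pigments of the eye, differed between the sexes. The 8 opsin genes took 9.37% to 45.6% of the counts in female libraries, with a median of 27.0%, and 1.39% to 13.7% in male libraries, with a median of 4.58%. The JO was not checked against neuronal markers, because no annotation of these identifiers was used here.

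In the LRIM cluster, AGAP007453, AGAP007454, AGAP007455 and AGAP007456 were abundant in every female library and close to 0 in males. AGAP007453 lay between 551.8 and 2858 normalised counts in the 18 female libraries, with a median of 1523, and between 0 and 19.1 in the 17 male libraries, with a median of 0.697. The lowest female library was thus 28.9 times the highest male one. AGAP007454 ran from 393.2 to 3722 in females, around a median of 1959, and from 0 to 24.5 in males, around a median of 0. For AGAP007455 the female range was 65.1 to 654.0 with a median of 310.9, against 0 to 2.03 and a median of 0 in males. AGAP007456 was found at 511.6 to 2536 in females, with a median of 1321, and at 0 to 12.4 in males, with a median of 3.02. None of these 4 ranges overlapped between the sexes.

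The few male reads were spread thinly. AGAP007453 had no count in 8 of 17 male libraries, AGAP007454 and AGAP007455 in 9 each and AGAP007456 in 2. Over the females and the males, AGAP007453 summed to 22601 and 45 counts, AGAP007454 to 27985 and 46, AGAP007455 to 4472 and 11, and AGAP007456 to 20905 and 92. In 4 male libraries AGAP007453, AGAP007454 and AGAP007455 were all at 0. A single male library, ZT8 replicate 1, held 21 of the 45 male counts of AGAP007453 and 27 of the 46 of AGAP007454, while AGAP007455 was at 0 there. A group at 0 still allows up to 3 counts, and this limit covers counting error only, as the reads carry no molecular identifiers. Measured against that limit, female levels were at least 1629-fold higher for AGAP007453 at ZT0, at least 2996-fold higher for AGAP007454 at ZT20 and at least 251.5-fold higher for AGAP007455 at ZT8, where all 3 male libraries were at 0.

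The fitted log2 fold change of females over males, from a model of time point and sex, was 9.39 ± 0.43 (SE) for AGAP007453, and without male ZT8 replicate 1 it was 10.19. For AGAP007454 it was 9.64 ± 0.49, and 10.71 without that library. AGAP007455 stood at 8.83 ± 0.40 and AGAP007456 at 8.16 ± 0.36. By size, these 4 log2 fold changes ranked 5, 4, 7 and 9 among the 12428 transcripts that passed the filter on low counts. The values were the basis of the choice of genes and carry no test.

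The last gene of the cluster, AGAP007457, behaved differently. Its range was 15.2 to 127.3 normalised counts in females, with a median of 33.0, and 2.13 to 24.4 in males, with a median of 6.11. The sexes overlapped. Only 12 of the 18 female libraries lay above every male library, and within single time points the 2 sexes were apart at 4 of the 6. The log2 fold change was 2.30 ± 0.35 (SE), which ranked 959.

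LRIM1 and the APL1 genes were expressed in both sexes and higher in females. LRIM1 ran from 2985 to 14493 normalised counts in females, with a median of 6055, and from 186.7 to 1375 in males, with a median of 472.8. No male library reached the lowest female library, which was 2.17 times the highest male one. The log2 fold change of LRIM1 was 3.41 ± 0.26 (SE).

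The APL1 genes followed the same pattern. AGAP007033 spanned 1291 to 6439 in females around a median of 2506, and 77.6 to 668.1 in males around a median of 219.7. AGAP007035 spanned 159.9 to 947.2 in females around 343.2, and 3.84 to 66.3 in males around 25.7. AGAP007036 spanned 133.1 to 878.3 in females around 323.3, and 12.3 to 70.7 in males around 26.1. Again no female and male ranges overlapped. Their log2 fold changes were 3.37 ± 0.25 for AGAP007033, 3.55 ± 0.28 for AGAP007035 and 3.67 ± 0.28 for AGAP007036 (SE), and with LRIM1 they ranked 239 to 335 by size. The APL1 genes are close copies. Their estimated counts were whole numbers, within 0.001, in 0 of 35 libraries, while those of LRIM1 and the LRIM cluster were whole in all 35, so reads were shared out between APL1 copies or with other transcripts, and how they divide between the copies is uncertain.

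As a description, 9 of 9 members belonged to the 34.2% of the 12428 tested transcripts that edgeR called higher in females. For 8 of 9 members every female library lay above every male library, against 5.35% of all transcripts tested. Both counts follow from how the genes were chosen, and nothing is read from them. In pooled tissue, fewer cells of a type and less RNA per cell cannot be told apart.

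**Figure D1:**
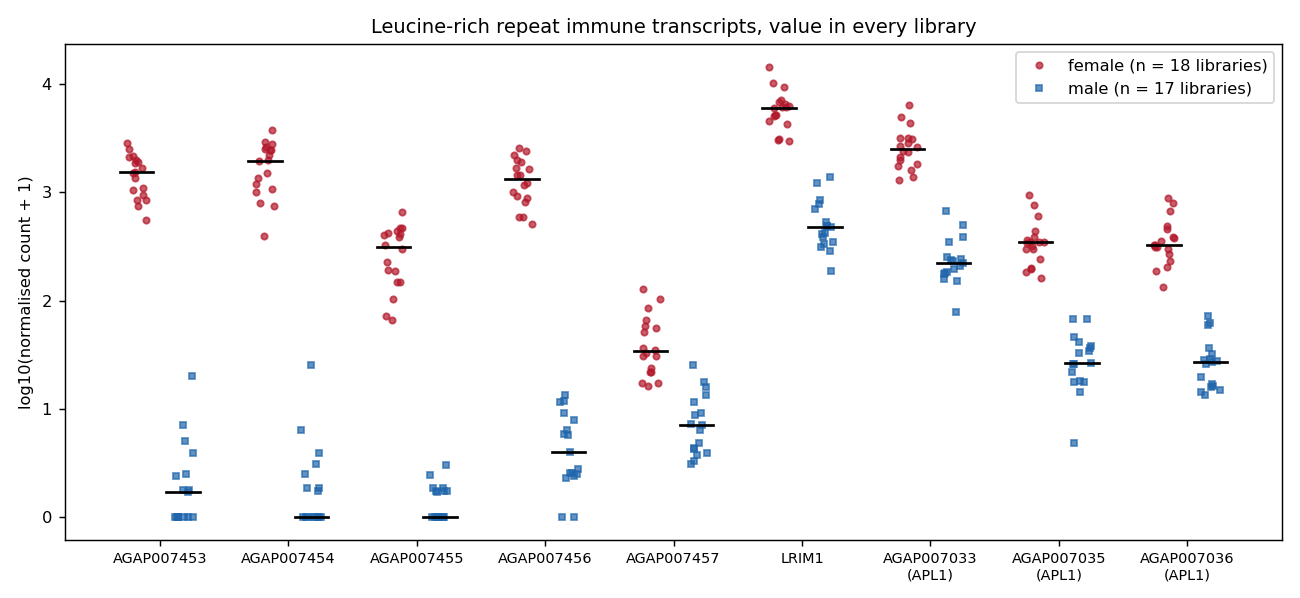
Value of each transcript in every library, as log10(normalised count + 1), with females (circles) left of males (squares) and black bars at the medians, n = 18 female and 17 male libraries. AGAP007453 to AGAP007456 are separated from males that lie at or near 0, AGAP007457 overlaps, and LRIM1 and the APL1 genes are present in both sexes without overlap.

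To see whether the difference was shared by the genes nearby, the 5 genes before and after each group in the numbering of identifiers were taken from the same fit. Identifier numbers stood in for position, since no coordinates were used. Whether a neighbour belongs to the same gene family as the members was not checked, as no annotation was used. Around the LRIM cluster, 9 transcripts were tested. Of these, 2 were higher in females, 3 were higher in males and 4 did not pass (edgeR, adjusted p under 0.05). Over all 12428 transcripts tested, 4247 (34.2%) were called higher in females and 4252 higher in males. The gene just before the cluster, AGAP007452, had a main transcript, AGAP007452-RA, at 353.0 ± 107.0 normalised counts in females and 575.4 ± 84.0 in males (SD, n = 18 and 17). It was lower in females (log2 fold change -0.74 ± 0.11 SE, edgeR adjusted p = 1.27e-06). The gene just after it, AGAP007458-RA, stood at 92.4 ± 24.4 in females and 106.9 ± 18.2 in males and did not pass (log2 fold change -0.24 ± 0.12, edgeR adjusted p = 0.0631). The 2 neighbours higher in females were AGAP007446-RA before the cluster, at 1.91 ± 0.65 on the log2 scale (SE, edgeR adjusted p = 0.0109), and AGAP007460-RB after it, at 2.39 ± 0.20 (edgeR adjusted p = 7.99e-12). AGAP007460-RB stood at 2110 ± 1164 normalised counts in females and 386.8 ± 196.3 in males (SD). AGAP007446-RA was rare, at 6.96 ± 7.07 in females and 1.58 ± 2.10 in males (SD). The log2 fold changes of 8.16 to 9.64 had no counterpart among the 9 tested neighbours, whereas that of AGAP007457, 2.30, did.

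Around LRIM1, 11 neighbouring transcripts were tested, of which 6 were higher in females, 0 were higher in males and 5 did not pass, with a median log2 fold change of 0.38. Around the APL1 genes the picture differed, as 7 of 8 neighbours were higher in females and 1 was higher in males. The median log2 fold change there was 1.56, against 0.00 over all transcripts tested, of which 34.2% were called higher in females. AGAP007037-RA, the next identifier after the APL1 genes, had every female library above every male one (log2 fold change 4.40 ± 0.27, edgeR adjusted p = 6.96e-15). AGAP007032-RA, just before the APL1 genes, was lower in females, at 124.3 ± 36.2 against 166.8 ± 33.3 in males (log2 fold change -0.45 ± 0.11, edgeR adjusted p = 9.39e-04). AGAP007034-RA, which lies between APL1 identifiers, failed the filter on low counts, with means of 5.41 in females and 0.400 in males. With the summed opsin level of each library added to the model, the log2 fold change was -0.35 for AGAP007452-RA, -0.33 for AGAP007032-RA and 3.46 for AGAP007037-RA. The first 2 no longer passed (edgeR adjusted p = 0.196 and 0.265), which does not show that those differences went away.

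**Figure D2:**
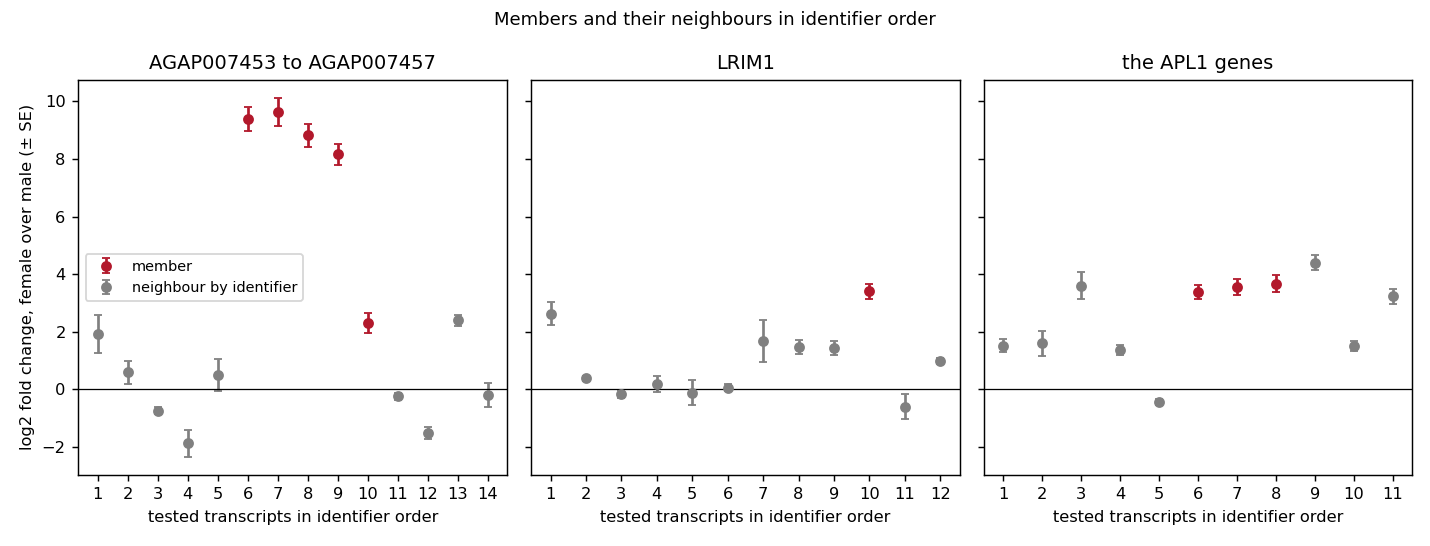
Log2 fold change of females over males with its standard error for the members (red) and the tested transcripts of the 5 genes on either side by identifier (grey), in identifier order. The first 4 members of the cluster stand at 8.16 to 9.64 and the highest neighbour of the cluster at 2.39, while most neighbours of the APL1 genes also lie above 0.

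The 6 time points were then compared within each sex. None of the 9 members passed the test over time of day in females (0 of 9, edgeR quasi-likelihood F-test, adjusted p from 0.479 to 0.998), where 1.23% of 12322 transcripts passed and 1120 had an unadjusted p under 0.05. The smallest p belonged to AGAP007457. Its 3 female libraries at ZT12 held 127.3, 103.4 and 84.0 normalised counts, and they were the highest of the 18. The means ± SD at ZT0, ZT4, ZT8, ZT12, ZT16 and ZT20 were 31.4 ± 22.0, 35.6 ± 16.9, 27.4 ± 5.77, 104.9 ± 21.7, 39.3 ± 24.8 and 33.2 ± 17.5 (n = 3 each). The edgeR test gave an unadjusted p of 0.0371 and an adjusted p of 0.479, so this profile did not pass, and AGAP007457 was the 1 member of 9 with an unadjusted p under 0.05.

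The other cluster genes also had their highest female mean at ZT12. AGAP007454 averaged 1463 ± 1027, 1189 ± 795 and 1128 ± 357 at ZT0, ZT4 and ZT8, then 3052 ± 610.4 at ZT12, 2191 ± 755 at ZT16 and 2197 ± 266 at ZT20 (SD, n = 3 each; edgeR adjusted p = 0.637). AGAP007456 held 2384, 2188 and 2536 in the 3 ZT12 libraries of females, and 511.6 to 1992 in the other 15. The ZT12 libraries were again the highest 3, and the test did not pass (edgeR adjusted p = 0.769). AGAP007453 and AGAP007455 peaked at 2144 ± 627 and 505.3 ± 129.3 at ZT12, with edgeR adjusted p = 0.830 and 0.925. LRIM1 was at 8620 ± 5116 at ZT12 and between 4835 ± 1903 and 6101 ± 3157 at the other times, and the ZT12 mean rested on replicate 1 with 14493, the highest female value of LRIM1 (edgeR adjusted p = 0.998). Replicates at 1 time point were far apart for most of these genes. For AGAP007454 the 3 female ZT4 libraries held 393.2, 1190 and 1984 normalised counts.

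In males 6 of the 9 members passed the filter on low counts, since AGAP007453, AGAP007454 and AGAP007455 were too rare to test. None of the 6 passed the test over time (edgeR adjusted p from 0.963 to 0.987, and 0 of 6 with an unadjusted p under 0.05), against 1.67% of 12360 transcripts called and 1143 with an unadjusted p under 0.05. LRIM1 averaged between 441.2 ± 230.1 at ZT0 and 737.4 ± 556.3 at ZT16 (SD, n = 3 each). At ZT12 only 2 male libraries remained, with a mean of 479.2 for LRIM1. DESeq2's likelihood ratio test also called 0 members in either sex.

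A test of the interaction of sex and time asked whether the time courses of females and males differed. None of the 6 members that could be tested in both sexes passed (edgeR adjusted p = 1 for each, and 0 of 6 with an unadjusted p under 0.05), against 1 of 12898 transcripts, or 0.00775%, called and 583 with an unadjusted p under 0.05. DESeq2's likelihood ratio test called none of these 6 either. AGAP007453, AGAP007454 and AGAP007455 entered the fit through their female counts and have no male time course to compare. For AGAP007454 edgeR's interaction test gave an unadjusted p of 0.00471 and an adjusted p of 0.641, and DESeq2's an adjusted p of 0.00403. However, 27 of its 46 male counts came from male ZT8 replicate 1. Without that library, an alternative added after the data were seen, DESeq2's adjusted p was 0.436. The labels number the repeated libraries of each group 1 to 3. Given time and sex, 0 of 9 members passed the test between the 3 replicate numbers (edgeR adjusted p from 0.380 to 0.967, 0 with an unadjusted p under 0.05, and 0 called by DESeq2), while 8.17% of 12551 transcripts passed and 3324 had an unadjusted p under 0.05. All p-values here measure the spread between pooled libraries, not between single animals.

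**Figure D3:**
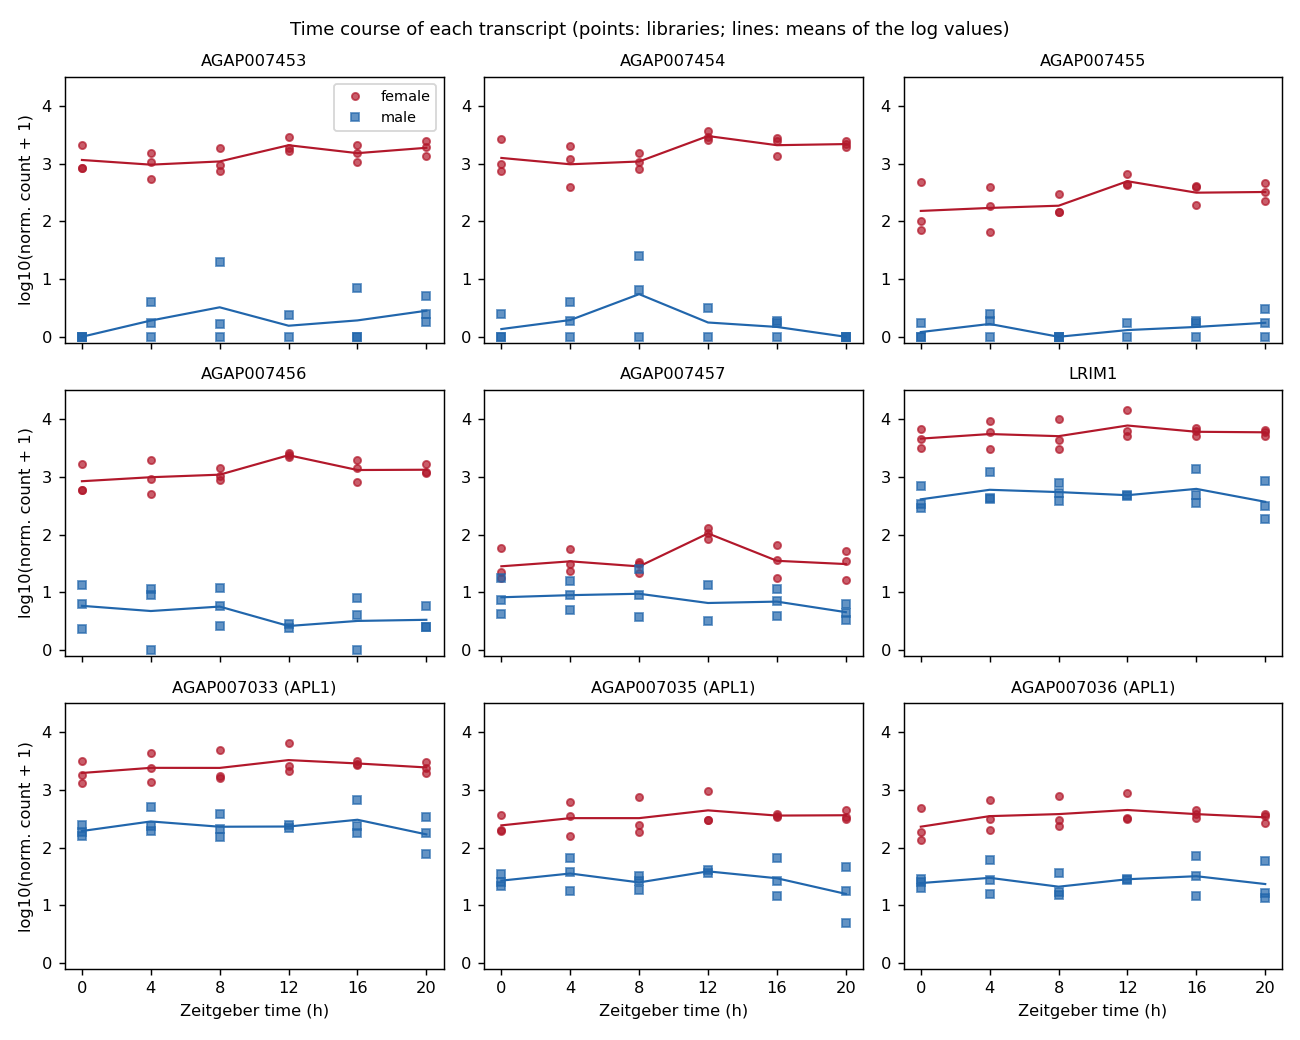
Log10(normalised count + 1) of each transcript against zeitgeber time in hours, with a point per library (female circles, male squares, n = 3 per time point and 2 for males at ZT12) and lines through the means of the log values. The 3 female ZT12 libraries are the highest for AGAP007456 and AGAP007457, but no transcript passed the test over time in either sex.

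Within females the members moved together across libraries. The 36 pairs of members were compared on log2(CPM + 0.5), where CPM is the count scaled to a common library size with edgeR's TMM factors, over the 18 female libraries, with 100000 permutations per pair and adjustment over the 36. By Pearson's r, 35 of the 36 pairs passed at an adjusted p under 0.05, the lowest of them at r = 0.49. Among all 67518010 pairs of the 11621 transcripts with a mean of at least 1 CPM in females, 7.13% had an r as high as that, and 0.0125% reached the lowest r among LRIM1 and the APL1 genes. Female libraries differed in their opsin share, as given above, and the part of tissue content in these r was not tested. The r describe the libraries and say nothing of control. Among LRIM1 and the APL1 genes, the 6 pairs had r from 0.93 to 0.96 and Spearman's rho from 0.93 to 0.96, each with a permutation adjusted p of 3.27e-05. LRIM1 and AGAP007033 reached r = 0.96 although the counts of LRIM1, whole in all libraries, show no sharing of reads. Pairs within the LRIM cluster had r from 0.66 to 0.95 (10 pairs, median 0.89, rho from 0.68 to 0.96), and the largest permutation adjusted p among them was 0.00375. The lowest values were those of AGAP007457.

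Pairs between the cluster and the LRIM1 and APL1 genes had lower r, from 0.45 to 0.78 with a median of 0.71 (rho from 0.35 to 0.82). The permutation adjusted p of these 20 pairs ran from 2.06e-04 to 0.0618, and only AGAP007457 with AGAP007035 did not pass. Without the 2 libraries farthest from the median of the first gene, r was 0.91 to 0.94 among LRIM1 and the APL1 genes, 0.69 to 0.94 within the cluster and 0.30 to 0.73 between them. With the mean of each time point removed, the ranges were 0.94 to 0.97, 0.66 to 0.96 and 0.36 to 0.88. Within the 3 replicate numbers (6 libraries each), r stayed at 0.90 or above among LRIM1 and the APL1 genes and at 0.62 or above in the cluster. Between the groups it ran from -0.23 to 0.96 within a replicate number, and the negative values all came from replicate 2. For AGAP007454 and LRIM1 r was 0.86 in replicate 1, 0.00 in replicate 2 and 0.66 in replicate 3. Without female ZT12 replicate 1, the library with the highest LRIM1 and left out after the data were seen, 32 of the 36 pairs passed. With 6 libraries per replicate number these r are descriptions and were not tested.

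In males the pairs were limited to members with at least 10 counts in at least 9 of the 17 libraries, which left LRIM1 and the APL1 genes. Their 6 pairs had r from 0.88 to 0.96 and rho from 0.83 to 0.92 over 17 libraries, with a permutation adjusted p of 1e-05 for each r, the smallest that the permutations can give. Without the 2 farthest libraries r was 0.77 to 0.93, with time-point means removed 0.93 to 0.96, and within the replicate numbers 0.63 to 0.99. Male ZT16 replicate 2 and ZT4 replicate 3 held the highest values of LRIM1, at 1375 and 1214, and of AGAP007033, at 668.1 and 501.8. ZT20 replicate 2 held the lowest, at 186.7 and 77.6.

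**Figure D4:**
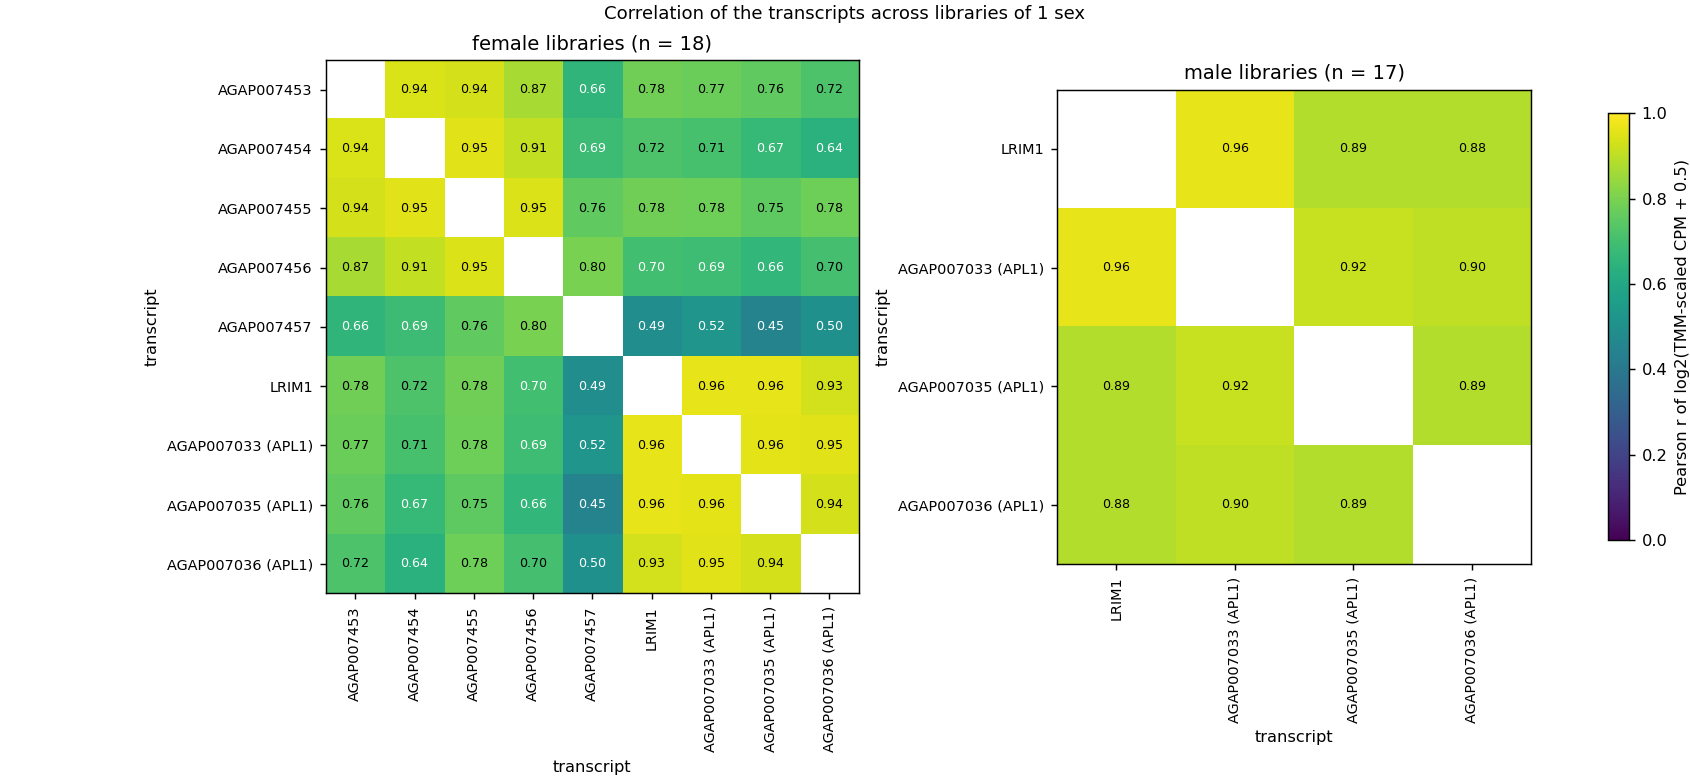
Pearson's r of log2(CPM + 0.5) for each pair of transcripts, over 18 female libraries (left, 9 transcripts) and 17 male libraries (right, LRIM1 and the APL1 genes). In females 2 blocks of high r appear, AGAP007453 to AGAP007456 and LRIM1 with the APL1 genes, and AGAP007457 has the lowest r with the second block, at 0.45 to 0.52.

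Outside the set, the transcripts whose female pattern was most like LRIM1 among 11612 compared were AGAP001377-RA (r = 0.96 over the 18 female libraries) and AGAP010731-RA (r = 0.95). For the mean of the standardised cluster transcripts they were AGAP002341-RA (r = 0.94) and AGAP008596-RA (r = 0.93). These r describe the top of a ranking and carry no test. The points share libraries and scaling. All 4 also had higher means in females, for example 139.8 and 13.5 CPM for AGAP001377-RA and 137.6 and 6.43 CPM for AGAP008596-RA in females and males.

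The complement-like pathway around LRIM1 and APL1 was examined with a list of 18 gene identifiers, 11 of them for thioester-containing proteins and CLIP-domain proteins and 7 for immune signalling. Of the 18, 17 were found in the deposited table, with 6 of the 7 for immune signalling. The identifiers were listed from general knowledge of the species and were not checked against an annotation. The tables used here do not pair them with names, so the list is given by counts. Of its 31 tested transcripts, 20 were higher in females, 6 were higher in males and 5 did not pass (edgeR), and the median log2 fold change was 1.35, against 0.00 over all transcripts tested. The share called higher in females over all transcripts tested was 34.2%. The complement-like part had 18 tested transcripts of 10 genes. Among them 14 were higher in females, 2 were higher in males and 2 did not pass, with log2 fold changes from -0.61 to 3.94 and a median of 2.67. These are counts of transcripts, not of genes. A gene with many transcripts supplied several of the 14, both that did not pass and the lowest log2 fold change. For 8 of these 18, every female library lay above every male library, with log2 fold changes of 2.90 or more. That held for 5.35% of all transcripts tested. The signalling part had 13 tested transcripts of 6 genes. Of these transcripts, 6 were higher in females and 4 higher in males, with a median of 0.49, and none of the 13 was without overlap. Most of the 6 higher in females were transcripts of the same gene. With total counts as the scaling the list had 16 transcripts higher in females and 8 higher in males, and with the opsin covariate 15 and 2. By time of day, 1 of 30 transcripts of the whole list passed in females and 0 of 31 in males, against 1.23% and 1.67% of all transcripts tested. AGAP010731, whose transcript ranked second in likeness to LRIM1, was listed in the complement-like part, which was not checked against an annotation.

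Lists of genes meant to mark other tissues were set beside the members. The haemocyte and fat body identifiers were listed from general knowledge of the species and were not checked against an annotation, so they are not verified markers. The haemocyte list of 10 genes was summed in each library in TMM-scaled CPM. Most of its identifiers were listed as prophenoloxidases. AGAP007045 was listed as a further LRIM gene, so the sum is not free of the members' family. The sums ran from 42.6 to 683.3 CPM in females and from 35.3 to 99.5 in males. Of its 6 tested transcripts all 6 were higher in females, with a median log2 fold change of 1.13, and 4 were too rare to test. AGAP007045-RA had the largest log2 fold change of the 6, at 2.74 ± 0.28 (SE). The fat body list of 2 genes ran from 412.6 to 1422 CPM in females and from 88.0 to 307.2 in males, and both its transcripts were higher in females, with a median log2 fold change of 2.08. The fat body sum is nearly that of 1 gene, as its transcripts averaged 12221 and 31.2 normalised counts in females and 2034 and 8.09 in males. All 10 opsin transcripts were higher in females, with a median of 3.00. Beside these lists, 34.2% of all transcripts tested were called higher in females. None of the genes in these lists was at 0 in every library.

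Within females, LRIM1 followed the haemocyte and fat body lists, while its relation to the opsins did not pass. Over 18 female libraries, the haemocyte sum gave r = 0.87 and rho = 0.87 with LRIM1 (permutation adjusted p = 9e-05 and 1.8e-04, adjusted over 9 relations), r = 0.78 without the 2 farthest libraries and r from 0.82 to 0.98 within replicate numbers. The haemocyte sum includes AGAP007045, and r without that gene was not computed. The fat body sum gave r = 0.86 and rho = 0.77 (permutation adjusted p = 9e-05 and 9.9e-04), r = 0.79 without 2 libraries and r from 0.77 to 0.94 within replicate numbers. For the opsin sum r was -0.21 and rho -0.06 (permutation adjusted p = 0.467 and 0.846), with r of -0.83, -0.20 and -0.27 within replicate numbers 1, 2 and 3. The cluster mean had r = 0.75 with the haemocyte sum and r = 0.69 with the fat body sum (rho = 0.67 and 0.61, permutation adjusted p for r = 2.92e-04 and 0.00299). Within replicate 2 these values were 0.27 and 0.39. With the opsin sum the cluster mean had r = -0.12 (rho = -0.05, permutation adjusted p = 0.626 for r), and within replicate numbers 1, 2 and 3 r was -0.78, 0.63 and -0.41.

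Female ZT12 replicate 1 stood apart in these lists. It had 683.3 CPM of the haemocyte list, where the other 17 female libraries had 42.6 to 185.3, and it was also the highest of all libraries for LRIM1, AGAP007033, AGAP007035, AGAP007036, AGAP007453, AGAP007454, AGAP007455 and AGAP007457. In males LRIM1 had r = 0.80 with the fat body sum (rho = 0.77), r = 0.51 with the haemocyte sum (rho = 0.39) and r = 0.63 with the opsin sum (rho = 0.56), with permutation adjusted p for r of 2.92e-04, 0.0440 and 0.00951. The male haemocyte relation fell to r = 0.21 without the 2 farthest libraries and thus rests on them, while the fat body relation stayed at r = 0.70 and the opsin relation at 0.48. The part of haemocytes, fat body or eye tissue in the sex difference was not tested.

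**Figure D5:**
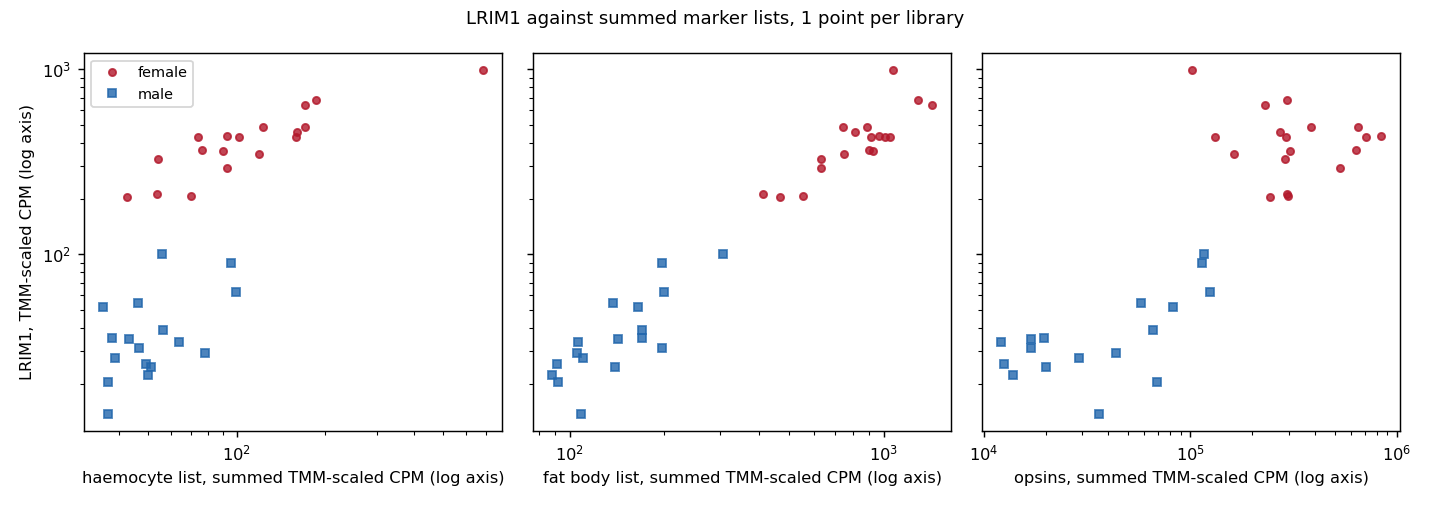
LRIM1 against the summed haemocyte list (left), fat body list (middle) and opsins (right), each in TMM-scaled CPM on log axes, with a point per library (18 female circles, 17 male squares). Within females LRIM1 follows the haemocyte list (r = 0.87) and the fat body list (r = 0.86) while r with the opsins is -0.21.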

How the data were processed

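RNA-seq libraries were made by the authors from the JOs of 35 pooled animals with the SMART-Seq v4 kit and read as 38-base pairs. The authors assigned reads with Kallisto to VectorBase release 53 transcripts and deposited estimated counts, without normalization. Kallisto's options are not given in the sources used here. The male ZT12 library discarded by the authors was taken as replicate 3 and left out. Of the table's columns, 0 had no sample.

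Estimated counts were rounded and fitted over the whole table with edgeR 4.0.16 (R 4.3.3; filterByExpr, TMM, quasi-likelihood F-test, Benjamini-Hochberg threshold 0.05). The models were time point plus sex, time within each sex, their interaction, and replicate number. The SE of a log2 fold change is its size divided by the square root of F. Normalised counts used DESeq2 1.42.0 size factors. Correlations used numpy 2.4.6 on log2(CPM + 0.5). On simulated counts with 200 changed transcripts, 4-fold changes were recovered for 199 of 200 between sexes, 162 of 200 over time in females, 148 of 200 in males, 75 of 200 in the interaction and 192 of 200 between replicate numbers. The simulated spread followed the trend over all transcripts, not the members' own spread, so these shares need not hold for the members.

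No replicate was a copy of another, as the chi-square per degree of freedom between libraries of 1 group was 42.3 or more. Members, lists and tests were chosen with earlier results of these data known. All transcripts of the 9 genes are named. Neighbours by identifier are also named, chosen after their values were seen. The only other genes named are the 2 most like LRIM1, the 2 most like the cluster mean, and AGAP007045 of the haemocyte list. Identifiers of the members matched 0 entries of the RefSeq table, so no coordinates or sequences are given.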

Additional observations from a re-analysis of the deposited data

Results flagged for a closer look

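Male ZT12 replicate 3, which had been discarded before the study's tests, entered no comparison, yet it held counts of some members above the 3 counts that a count of 0 allows, out of 13439821. It had 17 estimated counts of AGAP007456, 102 of AGAP007457, 6 of LRIM1 (AGAP006348), 32.4 of AGAP007033, 17.3 of AGAP007035 and 57.3 of AGAP007036. AGAP007453, AGAP007454 and AGAP007455 were at 0. In the 17 male libraries that were compared, LRIM1 had 243 to 1647 estimated counts and AGAP007457 had 3 to 35, so LRIM1 was below all of them and AGAP007457 above all of them. The authors wrote that a ZT12 replicate was dropped for low quality, as mechanosensory genes that are usually high in the JO were very low in it. The cause of the member counts was not tested. None of the 6 members that could be tested in both sexes passed edgeR's interaction test, and groups of 3 libraries were not searched for outlying values.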

How the results depend on the processing

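The median log2 fold change of the 9 members was 3.67 in females over males, and 3.67 with a replicate block. It was 3.69 to 3.79 without each replicate or without male ZT8 replicate 1 (left out after the data were seen). With the summed opsin level as a covariate it was 2.88, and AGAP007457 was not called while 8 of 9 members were. Over all transcripts tested, calls higher in females then numbered 1862 instead of 4247. The genes were chosen on this difference, so nothing is read from the count of members called. Scaling by total counts moved the median of all transcripts to -0.53 and the share of calls higher in females to 25.3%, against an even split with TMM (4247 higher in females, 4252 higher in males), and the smallest log2 fold change of a member stayed 2.28 above that median. Of the neighbours called higher in females, those of the cluster numbered 1 instead of 2 with total counts, with the opsin covariate and with all 36 libraries (1 to 2 without each replicate), those of LRIM1 3 instead of 6 and those of the APL1 genes 4 instead of 7 with the opsin covariate.

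Calls over time in females numbered 650 in DESeq2 and 409 with 24 h cosine and sine terms, against 151, and 10 to 183 without each replicate or library (97 without ZT12 replicate 1). In males they numbered 633 in DESeq2 and 126 with all 36 libraries, against 206, and 11 to 208 without each replicate or library (136 without ZT12 replicate 1). No member was among them under any alternative. The smallest adjusted p of a member in females, 0.126, came with DESeq2.

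Interaction calls numbered 82 in DESeq2 (70 without male ZT8 replicate 1), 3 with total counts, 2 with the opsin covariate, 0 with a replicate block and 0 with all 36 libraries, against 1, and 0 to 2 without each replicate. Calls between replicate numbers were 1708 in DESeq2, 87 with total counts, 588 with the opsin covariate and 7 with all 36 libraries, against 1026, and 16 to 744 without each replicate. Of the 36 female pairs, 15 to 36 passed without each replicate, the lowest without replicate 1, which left 12 libraries. The cause of these shifts was not tested. Deviations from the group means correlated at over 0.1 in 86 of 187 pairs of libraries with the same replicate number (median 0.07, lowest -0.48) and in 99 of 374 pairs with other numbers (median -0.05). As not every pair was above 0.1, the numbers were not taken to pair the libraries. A rule that asks this of every pair cannot show that the libraries are unpaired. Male counts of AGAP007453 to AGAP007455 were too few to follow over time.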
